A study of Mus musculus with 12 samples.

Results

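The late phase of the hypoxic response was followed in TAp73+/+ mouse embryonic fibroblasts (MEFs) by setting the 2 arrays from cells kept 8 h at 1% oxygen against the 2 arrays from cells kept 4 h at 1% oxygen. These are 4 of the 12 arrays of the series, and no array of untreated cells enters the contrast. TAp73 names the p73 proteins with a full transactivation domain, made from the gene Trp73. The other 8 arrays are of TAp73-/- MEFs after 8 h, after 4 h and untreated, and of untreated TAp73+/+ MEFs, with 2 arrays a group. All cells were grown in DMEM with 10% serum and, before or without hypoxia, at 21% oxygen. The labels give no strain, embryo or number of lines, so each genotype may be 1 line, and they do not say that the 2 arrays of a group are separate cultures. The p-values therefore measure the spread between these arrays, which may be technical. The RNA is from whole cultures, so a change in the share of cells that carry a transcript and a change in its amount per cell cannot be told apart. The contrast covers 10873 genes with a probe above background in at least 1 group.

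Cells sense falling oxygen through prolyl hydroxylases, which mark the alpha subunits of hypoxia-inducible factor (HIF) for destruction while oxygen is plentiful. When oxygen is short, HIF accumulates, binds a short core sequence near its target genes and raises transcripts for glucose uptake, glycolysis, lactate export, vessel growth and collagen hydroxylation. Longer hypoxia also slows growth, and other stress pathways, among them the ATF4, NF-kappaB and early-response programmes, join with their own timing.

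The arrays carry 45281 probes, of which 42.8% to 43.8% were detected on the 4 arrays of the contrast. The mean signal was 533 and 507 at 8 h and 578 and 563 at 4 h. Across the 21223 probes above background in at least 1 group, the 2 arrays of a group correlated at r = 0.996 at 8 h and r = 0.997 at 4 h. Of 13 fibroblast markers on the array, 7 were detected on all 4 arrays, among them Vim, Fn1, Thy1 and Twist1, and 5 were undetected on all 4, namely Col1a1, Col1a2, Col3a1, Dcn and Lum. The single Trp73 probe was undetected on all 6 arrays labelled TAp73+/+, with log2 signals of 4.86 and 4.41 at 8 h and 4.46 and 4.49 at 4 h. On the arrays labelled TAp73-/- it was detected at both hypoxia times, with 5.95 and 6.49 at 8 h and 6.01 and 5.72 at 4 h. At both hypoxia times the probe thus read higher on the arrays labelled TAp73-/-. That label names the forms with a full transactivation domain, and whether the probe reads these forms alone is not known here. The probe's place relative to the deletion could not be settled, which leaves the labels unchecked, and each direction between genotypes given here rests on the labels alone. Probes of 1 gene did not always move together. The main pattern of their disagreement was given a score (the first principal component of probe deviations within genes). On the TAp73+/+ arrays it was 0.19 and 0.30 at 8 h, against -0.08 and -0.10 at 4 h, and 0.59 and 0.39 untreated. On the TAp73-/- arrays it was -0.24 and -0.09 at 8 h, -0.36 and -0.37 at 4 h, and -0.10 and -0.13 untreated. With this score in the model the median standard error (SE) of the contrast grew to 0.238 from 0.127 and 5 genes (0.046%) were called in place of 1505. These 5 are Tenm4, Mycl, Klf2 and Ccl2, all higher at 8 h, and H1f2, lower at 8 h. The score's part in the results was not tested, and where it turned the sign of a named gene this is given beside the gene.

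At a Benjamini-Hochberg adjusted p below 0.05 (limma), 1505 genes, 13.8% of those tested, differed between 8 and 4 h of hypoxia in TAp73+/+ cells. Of these 937 were higher at 8 h (8.62%) and 568 lower (5.22%), and the median change of all genes was 0.02 on the log2 scale. With median centring in place of quantile normalisation the split was 805 higher and 711 lower (53.1% higher in place of 62.3%) and the median -0.02, so the excess of rises depends in part on the scaling. The counts for gene groups are to be read against these shares over all genes, and a group near them is only described. A log2 change of at least 1 was reached by 55 of the higher and 45 of the lower genes. The count fell to 411 and 316 without the first or the second array at 4 h, and to 694 and 286 without the first or the second array at 8 h. Of the 144 called genes that the naming rule covers, 46 were called without any 1 of the 4 arrays, 44 were called in some of these fits and 54 in none. All 144 kept their direction in the 4 fits.

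The largest rises belonged to secreted and membrane proteins and to transcription regulators. Tenm4, a teneurin of the cell surface, had log2 signals of 7.58 and 7.33 at 8 h, against 5.50 and 5.59 at 4 h. It was 3.76-fold higher at 8 h, a change of 1.91 ± 0.12 (SE; adjusted p = 4.01e-05). Untreated cells had 6.11 and 6.29, so the 4 h arrays lie below and the 8 h arrays above them. Plau, the urokinase-type plasminogen activator that starts pericellular proteolysis, had 9.12 and 9.27 at 8 h and 7.48 and 7.58 at 4 h (1.67 ± 0.24, adjusted p = 0.00271). The untreated arrays of Plau, at 8.36 and 7.36, were far apart. Il11, a cytokine of the interleukin 6 family, read 8.03 and 7.85 at 8 h and 6.28 and 6.51 at 4 h (1.55 ± 0.14, adjusted p = 0.000222). The secreted protein gene Tafa2 rose by 1.74, the Myc relative Mycl by 1.53, the Krüppel-like transcription factor Klf2 by 1.49, Plvap, known from the diaphragms of fenestrated endothelium, by 1.47 and the zinc transporter Slc30a3 by 1.44. Pcdh7, a protocadherin, rose by 1.33 and the zinc finger gene Zbtb40 by 1.24. These 10 genes with Ccl2 and Cxcl2, described with the chemokines, are the 12 largest called rises whose arrays at 8 and 4 h do not overlap, a lack of overlap that 36.2% of all genes showed upward and 30.1% downward. All of the 12 but Zbtb40, which read 0.14 with the probe score in the model, stayed called without any 1 array.

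The largest falls were the inducible chaperone Hspa1a and replication-dependent histones. Hspa1a, the stress-inducible HSP70, had 7.05 on both arrays at 8 h, against 9.07 and 8.78 at 4 h. It was 3.68-fold lower at 8 h (-1.88 ± 0.14, adjusted p = 7.43e-05). Untreated cells had 6.72 and 7.06, so the 8 h arrays lay at or near the untreated level. H1f2, a linker histone, had 8.04 and 8.28 at 8 h, 9.80 and 9.91 at 4 h and 12.24 and 12.33 untreated. It fell by 1.70 ± 0.11 between 4 and 8 h (adjusted p = 4.01e-05). Outside the histones, the RNA helicase Ddx5 fell by 1.60, the trafficking adaptor Tom1 by 1.51 and Phgdh, the first enzyme of serine synthesis, by 1.5. Phgdh read 9.03 and 8.32 at 8 h, 10.24 and 10.10 at 4 h and 7.20 and 7.79 untreated. With the probe score in the model the falls were 0.70 for Ddx5, 0.68 for Tom1 and 0.45 for Phgdh, none of them called.

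**Figure D1:**
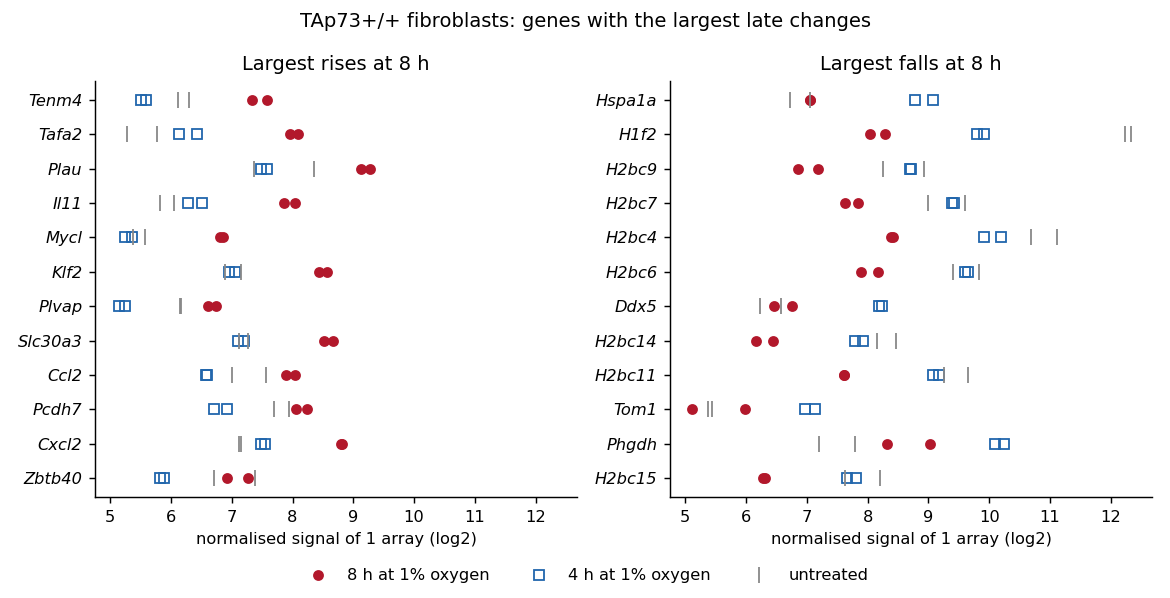
Normalised log2 signal of each array for the 12 genes with the largest rises (left) and the 12 with the largest falls (right) between 4 and 8 h in TAp73+/+ cells. Filled circles are the 2 arrays at 8 h, open squares the 2 at 4 h and grey ticks the 2 untreated arrays. Genes were shown only where circles and squares do not overlap, and the changes run from 1.24 to 1.91 among the rises and from -1.43 to -1.88 among the falls.

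Sequences upstream of genes from the groups that follow are shown for the short motifs usually sought near NF-kappaB, HIF and histone genes. They are RefSeq windows on GRCm38.p6 that run from 250 bases before to 50 bases after the transcription start, in the gene's direction, and capitals mark the motif on either strand. Cxcl1 (chr5:90890995-90891294, + strand) and Cxcl2 (chr5:90903649-90903948, + strand) encode neutrophil chemokines that rose at 8 h. Each has 1 stretch that matches the NF-kappaB motif, GGGA, any 2 bases and TTCC, on both strands, the matches overlapping by all but 1 base.

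Cxcl1: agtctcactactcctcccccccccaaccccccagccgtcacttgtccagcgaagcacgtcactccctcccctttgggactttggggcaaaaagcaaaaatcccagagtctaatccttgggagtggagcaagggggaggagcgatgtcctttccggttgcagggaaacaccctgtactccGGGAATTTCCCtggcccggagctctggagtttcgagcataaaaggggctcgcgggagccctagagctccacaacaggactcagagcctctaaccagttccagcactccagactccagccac

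Cxcl2: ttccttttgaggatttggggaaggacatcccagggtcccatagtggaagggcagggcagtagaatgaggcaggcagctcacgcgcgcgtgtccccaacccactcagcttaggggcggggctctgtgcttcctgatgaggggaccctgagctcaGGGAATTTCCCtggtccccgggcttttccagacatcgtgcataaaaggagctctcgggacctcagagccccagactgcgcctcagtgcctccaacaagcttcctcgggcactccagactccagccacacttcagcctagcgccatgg

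Slc16a3 (chr11:120948817-120949116, + strand), a lactate exporter, and Aldoc (chr11:78322823-78323122, + strand, the first of 2 windows), a glycolytic aldolase, are shown for the hypoxia response core ACGTG or GCGTG. The window of Slc16a3 holds 2 matches and that of Aldoc 3.

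Slc16a3: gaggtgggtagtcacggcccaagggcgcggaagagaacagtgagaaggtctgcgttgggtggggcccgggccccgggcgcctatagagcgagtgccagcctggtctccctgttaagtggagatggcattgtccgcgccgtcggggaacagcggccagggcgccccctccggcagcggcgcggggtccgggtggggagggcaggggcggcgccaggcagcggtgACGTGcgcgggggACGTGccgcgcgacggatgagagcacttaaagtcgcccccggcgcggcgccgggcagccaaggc

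Aldoc: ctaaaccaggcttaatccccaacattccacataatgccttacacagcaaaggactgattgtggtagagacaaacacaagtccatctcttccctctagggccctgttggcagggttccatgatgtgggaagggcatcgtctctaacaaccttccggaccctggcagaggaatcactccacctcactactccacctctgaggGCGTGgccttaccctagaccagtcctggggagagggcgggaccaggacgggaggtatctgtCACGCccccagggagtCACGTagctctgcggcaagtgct

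H1f2 (chr13:23738557-23738856, + strand) and H2bc11 (chr13:22042948-22043247, + strand) are shown for the CCAAT box, of which they hold 1 and 5. Their transcripts fell together at 8 h.

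H1f2: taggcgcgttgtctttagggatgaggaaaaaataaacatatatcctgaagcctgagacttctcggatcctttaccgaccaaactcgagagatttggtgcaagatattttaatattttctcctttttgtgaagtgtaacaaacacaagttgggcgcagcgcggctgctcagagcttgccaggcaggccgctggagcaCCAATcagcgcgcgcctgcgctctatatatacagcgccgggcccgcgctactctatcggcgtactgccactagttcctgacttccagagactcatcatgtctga

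H2bc11: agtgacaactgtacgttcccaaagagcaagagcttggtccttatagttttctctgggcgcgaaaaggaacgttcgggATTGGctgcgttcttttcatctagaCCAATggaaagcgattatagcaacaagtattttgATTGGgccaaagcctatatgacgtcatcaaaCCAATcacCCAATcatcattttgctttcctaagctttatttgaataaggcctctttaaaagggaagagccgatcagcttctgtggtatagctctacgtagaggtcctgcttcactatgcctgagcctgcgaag

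Among the windows of the called chemokine, cytokine and NF-kappaB feedback genes, 4 of 12 (33.3%) hold that NF-kappaB motif, against 1.47% of all 32851 windows. For the called glycolysis genes 13 of 17 (76.5%) hold ACGTG or GCGTG, against 43.8% of all windows. For the called histone genes 21 of 25 (84.0%) hold CCAAT, against 37.4% of all. The members were chosen with their changes known, and the first list takes in NF-kappaB feedback genes by its definition. Windows of members that were not called were not compared. A match is not a binding site, so these shares only describe the windows.

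Among the genes of glucose use most called members rose. Of 26 measured glycolysis, glucose uptake and lactate export genes, 13 rose at 8 h and 1 fell, and 12 were not called, with a median change of 0.37. The 13 include Pdk1 and Txnip, whose products hold back pyruvate oxidation and glucose uptake. Aldoc, an aldolase isoform of brain that hypoxia induces elsewhere too, had 8.99 on both arrays at 8 h, 7.90 and 7.80 at 4 h and 7.25 and 7.28 untreated. It rose by 1.14 ± 0.09 (adjusted p = 0.000116), and it was 0.58 higher at 4 h than untreated. Slc16a3 had 7.83 and 8.11 at 8 h and 6.92 and 6.98 at 4 h (1.02 ± 0.15, adjusted p = 0.00276). The pyruvate kinase gene Pkm rose by 0.67, Pdk1, the kinase that inhibits pyruvate dehydrogenase, by 0.61, and the phosphoglycerate kinase Pgk1 by 0.51. The other probes of Pkm and Pdk1 read 0.25 and 0.19, neither of them called, and the other probe of Pgk1 read -0.74. Pfkfb3, which makes the activator of phosphofructokinase and was detected on 1 of the 2 arrays at 8 h, fell by 0.54, while its relative Pfkfb4 rose by 0.60. The number higher was 3 to 8 when each of the 4 arrays was left out in turn, with medians of 0.38 to 0.44. Of 56 nuclear genes for oxidative phosphorylation subunits 0 were called in either direction by limma and a median of -0.14, which turned to 0.10 with the probe score in the model.

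Txnip, which blocks glucose uptake, moved against its own earlier change. It had 7.98 and 7.79 at 8 h, 6.75 and 6.64 at 4 h and 8.65 and 8.27 untreated. It was 1.76 lower at 4 h than untreated and then rose by 1.19 ± 0.13 (adjusted p = 0.000585), so that 8 h cells were still 0.57 below untreated cells.

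Some of the best-known hypoxia-inducible genes were called between 8 and 4 h and others were not. The lack of a call does not show a lack of change. Of 42 measured, 11 rose at 8 h and 4 fell, and 27 were not called, with a median of 0.13. Vegfa, the vessel growth factor, had 11.52 and 11.50 at 8 h, 11.46 and 11.44 at 4 h and 9.78 and 9.65 untreated, a late change of 0.06 ± 0.09 (adjusted p = 0.724). Slc2a1, the glucose transporter GLUT1, had 13.41 on both arrays at 8 h and 13.45 and 13.42 at 4 h (-0.03 ± 0.14, adjusted p = 0.919). Egln3, a HIF prolyl hydroxylase that HIF itself induces, had 10.72 and 10.73 at 8 h and 10.64 and 10.59 at 4 h (0.11 ± 0.09, adjusted p = 0.463). At 4 h they were 1.74, 1.68 and 2.04 above untreated cells. The stress gene Ndrg1 changed by 0.24 ± 0.11 (adjusted p = 0.184) and the vasodilator peptide gene Adm by 0.53 ± 0.18 (adjusted p = 0.0742), and neither passed the test.

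The hormone gene Stc1 did pass it, with 10.77 and 10.81 at 8 h and 10.30 and 10.47 at 4 h (0.40 ± 0.11, adjusted p = 0.0341). Its relative Stc2 fell, with 8.44 and 8.46 at 8 h, 9.12 and 9.10 at 4 h and 7.01 and 6.60 untreated (-0.66 ± 0.13, adjusted p = 0.00979). The nuclear receptor gene Rora fell by 0.49 and the adenylate kinase Ak4 by 0.42. Both remained above untreated cells, by 1.54 and 1.96. With median centring 7 members were higher and 4 lower. Without 1 array the list had 1 to 5 members higher and 0 to 1 lower, and Stc1, Stc2, Rora and Ak4 were each called in none of these 4 fits.

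Of 20 genes of the HIF system 1 was higher and 2 lower, a share near the 13.8% of all genes called. Hif3a, whose product can oppose HIF, rose by 0.62, and Siah2, a ubiquitin ligase for the oxygen sensors, fell by 0.86 ± 0.13 (adjusted p = 0.00322). Siah2 had 7.20 and 7.17 at 8 h, 8.05 on both arrays at 4 h and 7.09 and 7.04 untreated. The brightest probe of Hif1a, the oxygen-regulated HIF subunit, had 6.66 and 6.05 at 8 h and 7.46 and 7.24 at 4 h (-0.99 ± 0.23, adjusted p = 0.0178). Its other probe moved the opposite way by 0.66, and with the probe score in the model the change of the first was 0.04, so Hif1a has no settled direction. The other probe of Hif3a also ran opposite, at -0.32. Arnt, the constant partner of the HIF subunits, changed by 0.14 (adjusted p = 0.517), with its 5 other probes between -0.32 and 1.02, and Epas1 was undetected by both of its probes. The Bnip3 probe, for a mitophagy receptor, was undetected on all 4 arrays.

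**Figure D2:**
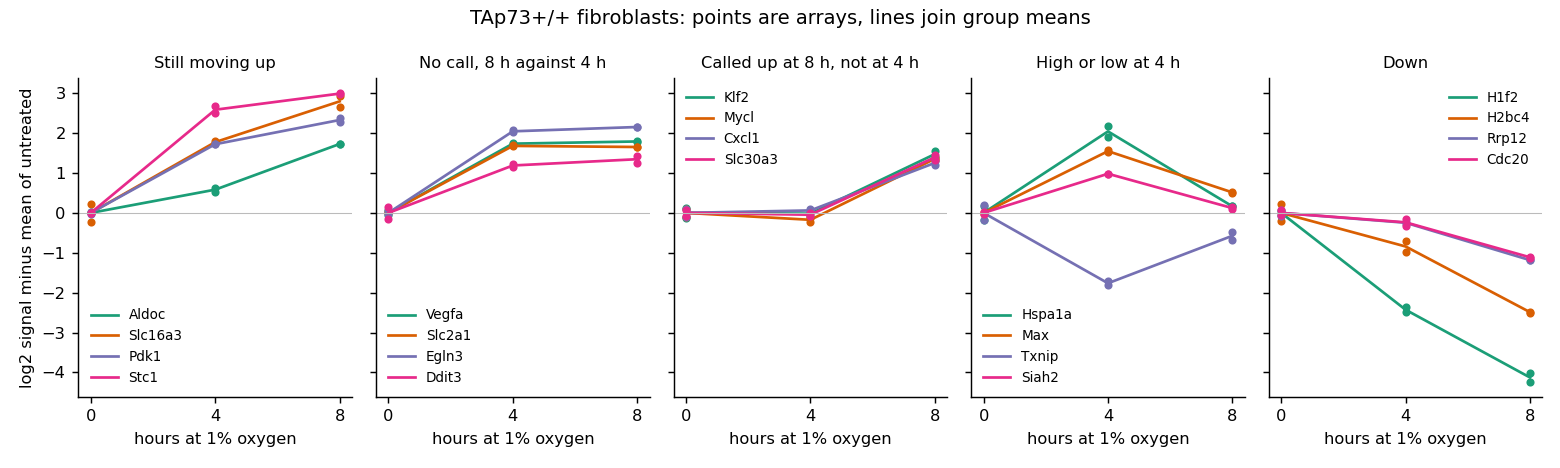
Log2 signal relative to the mean of the untreated arrays against hours at 1% oxygen in TAp73+/+ cells, for 5 sets of 4 genes picked after their values were seen. Points are arrays and lines join group means. Vegfa, Slc2a1, Egln3 and Ddit3 were not called between 8 and 4 h, Klf2, Mycl, Cxcl1 and Slc30a3 were not called between 4 h and untreated cells, and the means of Hspa1a, Max and Siah2 were highest at 4 h.

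Of 9 measured collagen hydroxylases and lysyl oxidases, 5 were higher at 8 h and none lower, with a median of 0.43. Plod2, a lysyl hydroxylase, rose by 0.67 and P4hb, the beta subunit of prolyl hydroxylase, by 0.61. The lysyl oxidase Loxl1 rose by 0.54 and P4ha2, a prolyl hydroxylase alpha subunit, by 0.46. With the probe score in the model Plod2 read 0.07, P4hb 0.25, Loxl1 0.42 and P4ha2 0.30, none of them called. The other probes of Plod2 read 0.33 and 0.79. One of the other probes of P4ha2 rose by 0.66 and one, at a lower signal, read -0.34. With the mean of each gene's probes 3 of the group were called, and without 1 array 0 to 2. Of 20 matrix genes themselves 2 were higher and none lower, with a median of 0.13 that turned to -0.003 without a detection filter. These were Timp3, an inhibitor of metalloproteinases, at 0.43 and the matrix glycoprotein Sparc at 0.33, and another probe of Sparc read -0.43. Neither was called without any 1 array.

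Angiogenic ligands and regulators had 7 of 28 members higher and none lower (median 0.29). Angptl4, a lipoprotein lipase inhibitor that also acts on vessels, had 9.26 and 9.20 at 8 h, 8.28 and 8.25 at 4 h and 8.90 and 8.92 untreated (0.96 ± 0.09, adjusted p = 0.000309). The guidance ligand Sema3f rose by 0.97. Sema3c, of the same family, was undetected on both arrays at 4 h and detected on both at 8 h, and was at least 1.38-fold higher (adjusted p = 0.00264). That bound compares the 8 h mean with the lowest signal among detected probes. Ephb4, an ephrin receptor of veins, rose by 0.73, and turned to -0.01 with the probe score in the model. Flt1, a receptor for VEGF-A and placental growth factor, rose by 0.72, the platelet-derived growth factor Pdgfb by 0.67 and placental growth factor Pgf by 0.57. Without 1 array 3 to 5 of the group were higher. Of 9 endothelial markers none was detected on all 4 arrays, and their summed signal was 240 and 234 at 8 h and 242 and 230 at 4 h.

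Chemokines and cytokines that were called all rose. Of 34 measured chemokine, cytokine and NF-kappaB feedback genes 13 were higher at 8 h and none lower, with a median of 0.40 beside 0.02 for all genes. Cxcl2 had 8.81 and 8.80 at 8 h, 7.48 and 7.54 at 4 h and 7.15 and 7.11 untreated (1.29 ± 0.10, adjusted p = 8.72e-05). Cxcl1 had 12.06 and 12.15 at 8 h, 10.96 and 10.86 at 4 h and 10.76 and 10.94 untreated (1.19 ± 0.10, adjusted p = 0.000222). Both are the genes whose upstream windows are printed above.

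Ccl2, which draws monocytes, had 8.04 and 7.90 at 8 h, 6.59 and 6.58 at 4 h and 7.0 and 7.56 untreated (1.38 ± 0.17, adjusted p = 0.00107). It had read 0.69 below untreated cells at 4 h. With Il11 at 1.55 these 4 genes had the largest changes of the group, and each was called without any 1 array, when 5 to 6 members of the group were higher. Of 8 macrophage markers on the array 5, among them Adgre1, Ptprc and Itgam, were undetected on all 4 arrays. The summed signal of the 8 was 398 and 411 at 8 h and 387 and 369 at 4 h.

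Of 36 interferon-stimulated genes 1 was higher and 4 lower (median 0.04, or -0.01 with median centring), a share near the 13.8% of all genes called, and 0 to 1 were higher and 1 to 3 lower without 1 array. The guanylate-binding protein gene Gbp3 fell by 0.87, the RNA sensor Ifih1, detected on 1 of the 2 arrays at 8 h, by 0.84, Gbp2 by 0.72 and the immunoproteasome subunit Psmb8 by 0.61, while Rsad2, an antiviral enzyme, rose by 0.66.

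Of 29 immediate early and AP-1 genes 6 were higher at 8 h and none lower (median 0.18). Klf2 had 8.57 and 8.43 at 8 h, 6.96 and 7.06 at 4 h and 6.89 and 7.16 untreated, a late rise of 1.49 ± 0.11 (adjusted p = 8.52e-05) beside -0.02 between 4 h and untreated cells. Atf3, a stress-induced relative of AP-1, had 9.88 and 9.76 at 8 h, 8.79 and 8.54 at 4 h and 7.70 and 7.87 untreated (1.16 ± 0.12, adjusted p = 0.000403). Fosb, an AP-1 subunit, rose by 1.12 ± 0.15 (adjusted p = 0.00187) and the small GTPase gene Rhob by 0.78. Without 1 array 4 to 5 of the group were called.

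Of 16 phosphatases that switch MAP kinases off and related feedback genes 4 were higher and 1 lower (median 0.20). Dusp10 rose by 0.93 ± 0.12 (adjusted p = 0.00152), Rgs16, a brake on G protein signalling, by 0.81, Dusp8 by 0.77 and Dusp1 by 0.68, while Dusp2 fell by 0.59. Of 17 YAP and TEAD targets 4 were higher, led by the kinase Nuak2 at 0.68, and none lower (median 0.08), and 1 to 2 were higher without 1 array.

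Of 32 ATF4 and CHOP stress genes 3 were higher and 2 lower (median -0.02), again a share near that of all genes. Aldh1l2, a mitochondrial folate enzyme, rose by 1.02, the stress protein gene Nupr1 by 0.62 and the transaminase Gpt2 by 0.49, while Phgdh and Stc2, described above, fell. Ddit3, which encodes CHOP, had 9.58 and 9.41 at 8 h, 9.29 and 9.38 at 4 h and 8.00 and 8.29 untreated, a late change of 0.16 ± 0.14 (adjusted p = 0.478). Endoplasmic reticulum chaperones and Xbp1 targets had 0 of 21 higher and 3 lower (median -0.06). The 3 were Sec61b, of the translocation channel, at -0.61, Edem1, which sorts misfolded proteins for degradation, at -0.57 and the chaperone Calr at -0.57. With the probe score in the model Sec61b read 0.14 and Calr 0.11, and the median of the list was 0.11. Without 1 array the ATF4 list had 0 to 2 genes higher and 1 lower, and the chaperone list 0 to 1 lower.

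Of 22 heat shock genes 1 was higher and 3 lower (median -0.13), and 1 and 1 to 2 without 1 array. Besides Hspa1a its neighbour Hspa1b, which encodes nearly the same protein, fell by 0.91, and Ahsa1, a co-chaperone of HSP90, by 0.43. The probes of Hspa1a and Hspa1b may share signal. The small heat shock protein gene Cryab rose, with 8.45 and 8.33 at 8 h, 7.21 and 7.40 at 4 h and 6.61 and 6.52 untreated (1.09 ± 0.15, adjusted p = 0.0019).

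The replication-dependent histones, made for packing new DNA in S phase, fell. Of 44 measured genes of the histone clusters 27 were lower at 8 h, none was higher, and 43 had a change below 0 (median -0.55). The H2B genes led, with H2bc9 at -1.69, H2bc7 at -1.67, H2bc4 at -1.65, H2bc6 at -1.61, H2bc14 at -1.55, H2bc11 at -1.52 and H2bc15 at -1.43. H2bc7 had 7.84 and 7.63 at 8 h, 9.43 and 9.39 at 4 h and 8.99 and 9.60 untreated. H2bc4 had 8.39 and 8.43 at 8 h, 9.91 and 10.20 at 4 h and 10.68 and 11.11 untreated. At 4 h H2bc7 differed from untreated cells by 0.12 (adjusted p = 0.65) and H1f2 by -2.43.

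The histone copies are nearly identical, so their probes may share signal and their number is not a number of independent genes. Another probe of H2bc4, dim at 4.68 at 8 h and 4.78 at 4 h, changed by -0.10. Without 1 array 13 to 19 of the histones were lower, with medians of -0.57 to -0.51, and with the probe score in the model the median was -0.40 with H1f2 alone called. Of 15 variant histones and histone processing genes 1 was called, H2ax, the variant that marks broken DNA, at -0.68 (median -0.10).

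Of 41 mitosis genes 14 were lower at 8 h and none higher (median -0.26). Cdc20, the activator of the anaphase-promoting complex, had 11.08 and 11.07 at 8 h, 11.86 and 12.04 at 4 h and 12.13 and 12.25 untreated (-0.88 ± 0.10, adjusted p = 0.000833), and its 3 other probes fell too. The condensin subunit Smc4 fell by 0.85, the cytokinesis factor Ect2 by 0.77 and the kinetochore protein Cenpf by 0.75. The other probes of Smc4 read -0.20 and -0.34 and that of Cenpf -0.27, none of them called. With the probe score in the model Smc4 read -0.19, Ect2 -0.12 and Cenpf -0.61. Of 47 DNA replication genes 11 were higher and none lower (median 0.23). With median centring 2 were higher and none lower (median 0.13), and with the mean of each gene's probes 9 were higher and 1 lower. E2f1, the S phase transcription factor, rose by 0.57, the chromatin assembly factor Chaf1a by 0.51, the dUTPase Dut by 0.49 and Uhrf1, which maintains DNA methylation, by 0.47, while the other probes of Dut and Uhrf1 read -0.16 and -0.19.

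Without 1 array 2 to 4 mitosis genes were lower and 0 to 3 replication genes higher. The medians stayed at -0.29 to -0.20 and at 0.21 to 0.23. Among 27 G1 cyclins, their partners and inhibitors 7 were higher and 2 lower (median 0.06), with E2f7, a repressor of E2F targets, at 0.77, Cdk2 at 0.56, E2f3 at -0.62 and E2f5 at -0.60, and 0 to 4 were higher and 0 to 1 lower without 1 array. The other probes of E2f7 read -0.02 and 0.45, those of Cdk2 -0.19, 0.67 and 0.19 and that of E2f3 -0.20. With the probe score in the model E2f7 read 0.38, Cdk2 0.19, E2f3 -0.42 and E2f5 -0.48. In the Myc network Mycl had 6.86 and 6.81 at 8 h, 5.25 and 5.36 at 4 h and 5.38 and 5.58 untreated (1.53 ± 0.10, adjusted p = 4.01e-05). Its dimer partner Max ran the other way, with 5.65 and 5.69 at 8 h, 6.72 and 6.68 at 4 h and 5.13 and 5.17 untreated (-1.03 ± 0.12, adjusted p = 0.000854). Mxd1, a repressor that also pairs with Max, rose by 0.50. Of 12 measured genes of this network 2 were higher, 1 was lower and 9 were not called (median 0.07).

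Of 33 ribosome biogenesis genes 7 were lower and none higher (median -0.21). Rrp12, a factor for export of the subunits, had 9.90 on both arrays at 8 h, 10.86 and 10.81 at 4 h and 11.01 and 11.16 untreated (-0.94 ± 0.10, adjusted p = 0.000585). Bop1 fell by 0.68, Rrp9 by 0.62 and Wdr43 by 0.51, all of them factors of ribosomal RNA processing. Without 1 array 1 to 3 of the group were lower. Of 50 ribosomal protein genes 1, Rpl22 at 0.37, was called (median 0.01).

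Of 31 splicing factors 9 were lower and 3 higher (median -0.18), and 0 to 7 and 0 without 1 array. The splicing regulator Tra2b fell by 1.19, Hnrnpk by 1.06, Hnrnpa2b1 by 0.90 and Hnrnph2, undetected at 8 h, was at least 1.23-fold lower. With the probe score in the model Hnrnpk read 0.19 and Hnrnpa2b1 0.30. The probe score moved the translation factor Eif3c to 0.29 from -0.90 and the proteasome subunits Psmd2 to 0.25 from -0.94 and Psmb5 to 0.06 from -0.43. Of 27 proteasome subunits 3 were lower and none higher (0 to 2 lower without 1 array), with a median of -0.17 that turned to 0.06 with the probe score, and of 32 translation factors Eif3c alone was called.

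**Figure D3:**
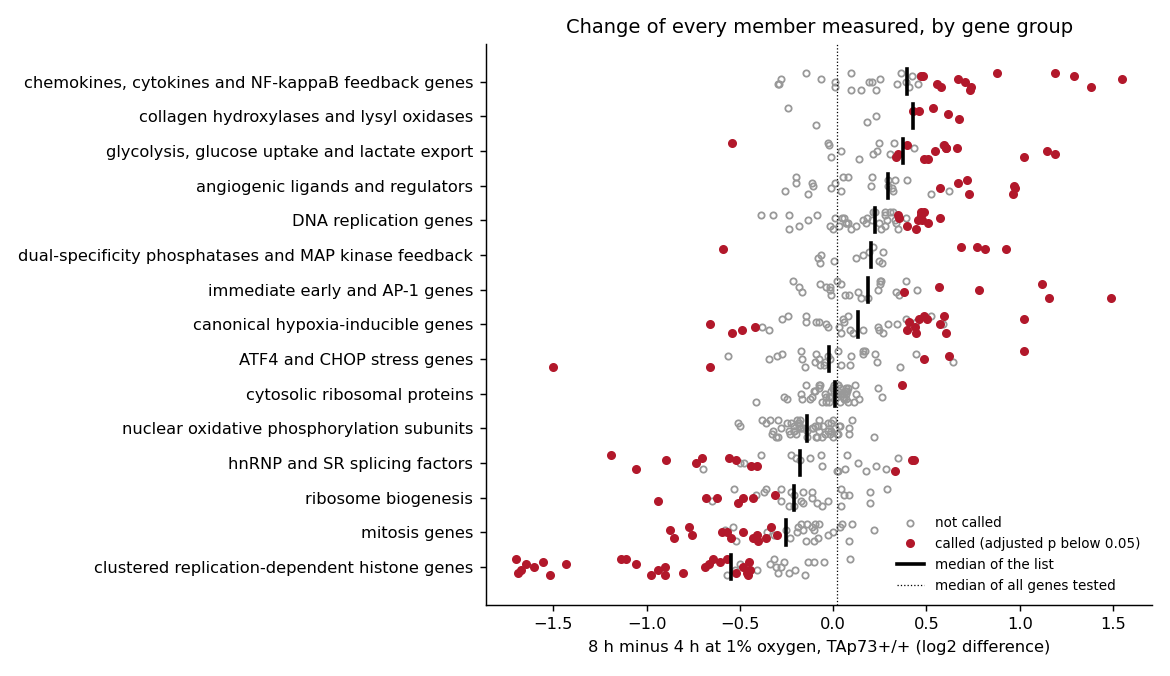
Log2 change at 8 h over 4 h of every measured member of 15 gene groups in TAp73+/+ cells. Each point is a gene, filled where called, the black bar is the group's median and the dotted line the median of all genes, 0.02. Medians run from 0.43 for collagen hydroxylases and 0.40 for chemokines and cytokines to -0.55 for clustered histones.

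Among 30 p53-family targets 2 were higher and 2 lower. The death receptor gene Tnfrsf10b fell by 1.03, though its 3 other probes read -0.11, -0.29 and -0.19, none of them called, Dram1 by 0.49, and Trp53inp1 and Plk2 rose by 0.50 and 0.48 (median 0.04), with 0 to 1 called each way without 1 array. Among 15 contractile genes 1 was higher, the integrin subunit Itga5 at 0.49, and 2 were lower, the LIM protein gene Fhl2 at -0.50 and Acta2. Acta2, smooth muscle actin, fell by 0.93 ± 0.13 (adjusted p = 0.00187), with 8.21 and 8.31 at 8 h, 9.30 and 9.09 at 4 h and 8.35 and 8.11 untreated. Of 15 clock genes 1 was higher and 2 lower, Rora among them. Dbp, an output gene of the clock, rose by 0.65 and Nr1d1, a clock repressor, was undetected at 8 h and at least 1.5-fold lower. Of 23 genes of mTOR control 4 were higher and 2 lower, and 0 were higher and 0 to 1 lower without 1 array. The arginine sensor relatives Castor2 and Castor1 rose by 0.56 and 0.35, the insulin receptor Insr by 0.49 and the translation repressor Eif4ebp2 by 0.41, while the sestrin Sesn3 fell by 0.42. Castor2 turned to -0.17 with the probe score in the model, and another of its probes read -0.50. Tsc1, part of the complex that holds mTOR back, fell by 0.57, though the mean of its probes gave 0.00028. Of 15 metallothionein and iron genes the iron exporter Slc40a1 rose by 0.81, the metallothionein Mt1 by 0.44, and the ferritin receptor Ncoa4 fell by 0.53. In the NRF2 group 1 of 21 was called, Srxn1 at 0.65. Without 1 array 0 contractile genes were higher and 1 lower by limma, 1 clock gene was higher and 0 lower, and 0 to 1 iron genes were higher and 0 lower.

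Of 9 epithelial markers on the array, 4 were detected on all 4 arrays and 3, namely Epcam, Krt5 and Krt14, on none. The tight junction gene Cldn4, detected on 1 of the 2 arrays at 4 h, had 6.15 and 6.17 at 8 h and 4.85 and 5.17 at 4 h (1.15 ± 0.12, adjusted p = 0.000585), and Krt19, a keratin, rose by 0.66. The other 4 of the 6 tested, Krt8, Krt18, Cdh1 and Cldn7, were not called, with changes from -0.12 to 0.03, and the median of the 6 was -0.01. The summed signal of the 9 was 8825 and 8942 at 8 h, 7518 and 7774 at 4 h and 5413 and 5445 untreated, and its part in the results was not tested. The sum over the 13 fibroblast markers was 9093 and 8211 at 8 h, 9350 and 9789 at 4 h and 4790 and 5945 untreated, so it too was higher in hypoxia than untreated.

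The same contrast in the cells labelled TAp73-/- uses 4 other arrays. There 1152 genes were called (10.6%), 734 higher (6.75%) and 418 lower (3.84%). Of these 470 were also called in the same direction in TAp73+/+ cells, which is 31.2% of the TAp73+/+ calls and 40.8% of the TAp73-/- calls, and 3 genes were called in opposite directions. Of the 1505 genes called in TAp73+/+ cells 91.8% had the same sign in TAp73-/- cells, beside 69.2% of all genes. The genes called higher in TAp73+/+ cells had a median change of 0.54 there and 0.34 in TAp73-/- cells, and those called lower -0.57 and -0.30. These genes were chosen by their change in TAp73+/+ cells, so the medians are a description. Across all genes the 2 changes correlated at r = 0.587, genes not being independent replicates. The probe score was higher at 8 h than at 4 h in both genotypes. In TAp73-/- cells it was -0.24 and -0.09 at 8 h and -0.36 and -0.37 at 4 h. Its part in the shared signs and in this correlation was not tested.

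H1f2 changed by -1.70 in TAp73+/+ cells and by -1.75 in TAp73-/- cells, and the clustered histones had medians of -0.55 and -0.35. Glycolysis genes had medians of 0.37 and 0.38, and chemokines and cytokines 0.40 and 0.32. Cxcl2 rose by 1.29 and 1.13 and Txnip by 1.19 and 1.66. Some large late changes in TAp73+/+ cells were small in TAp73-/- cells without the difference being called. Plau changed by 1.67 and 0.47 (difference adjusted p = 0.233), Pcdh7 by 1.33 and 0.20 (difference adjusted p = 0.145) and Fosb by 1.12 and 0.14 (difference adjusted p = 0.155).

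The test of the difference between the genotypes called 2 genes of 10873 (0.0184%), and 1330 had an unadjusted p below 0.05. Hspa1a fell in TAp73+/+ cells, where it had been high at 4 h, and had 6.22 and 6.17 at 8 h and 6.10 and 6.31 at 4 h in TAp73-/- cells, a change of -0.01. The difference between the changes, TAp73+/+ minus TAp73-/-, was -1.86 ± 0.19 (adjusted p = 0.0130). Ddit3, the gene of CHOP, changed by 0.16 in TAp73+/+ cells and rose by 1.74 in TAp73-/- cells, which had 12 and 12.07 at 8 h and 10.46 and 10.12 at 4 h. The difference was -1.59 ± 0.19 (adjusted p = 0.0311). Over 16 other settings the difference ran from -2.01 to -1.49 for Hspa1a, called in 9 with adjusted p from 0.000349 to 0.114, and from -1.76 to -1.42 for Ddit3, called in 6 with adjusted p from 0.000462 to 0.269.

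**Figure D4:**
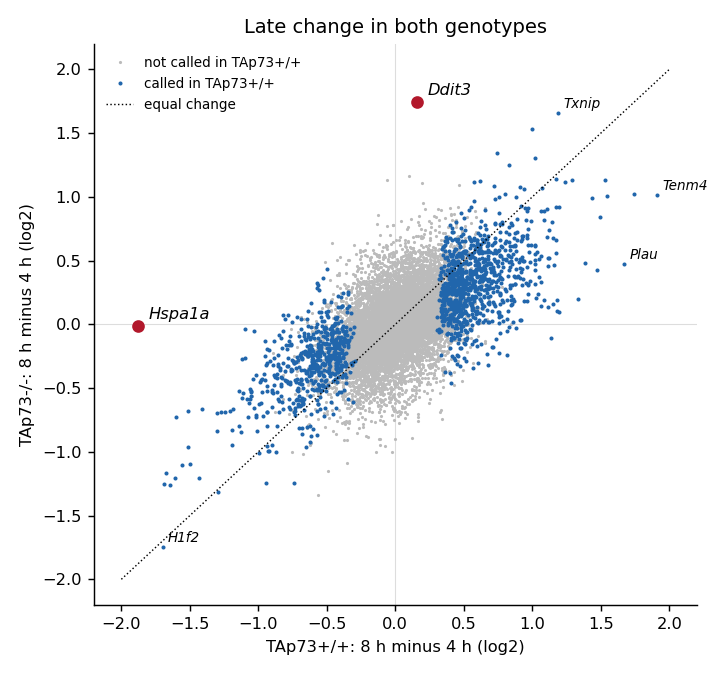
Change at 8 h over 4 h of each of 10873 genes in TAp73+/+ cells (horizontal axis, log2) and in TAp73-/- cells (vertical axis, log2), with genes called in TAp73+/+ cells in blue. Hspa1a and Ddit3, in red, are the 2 genes called in the test of the difference between the genotypes, and the dotted line marks equal change.

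**Figure D5:**
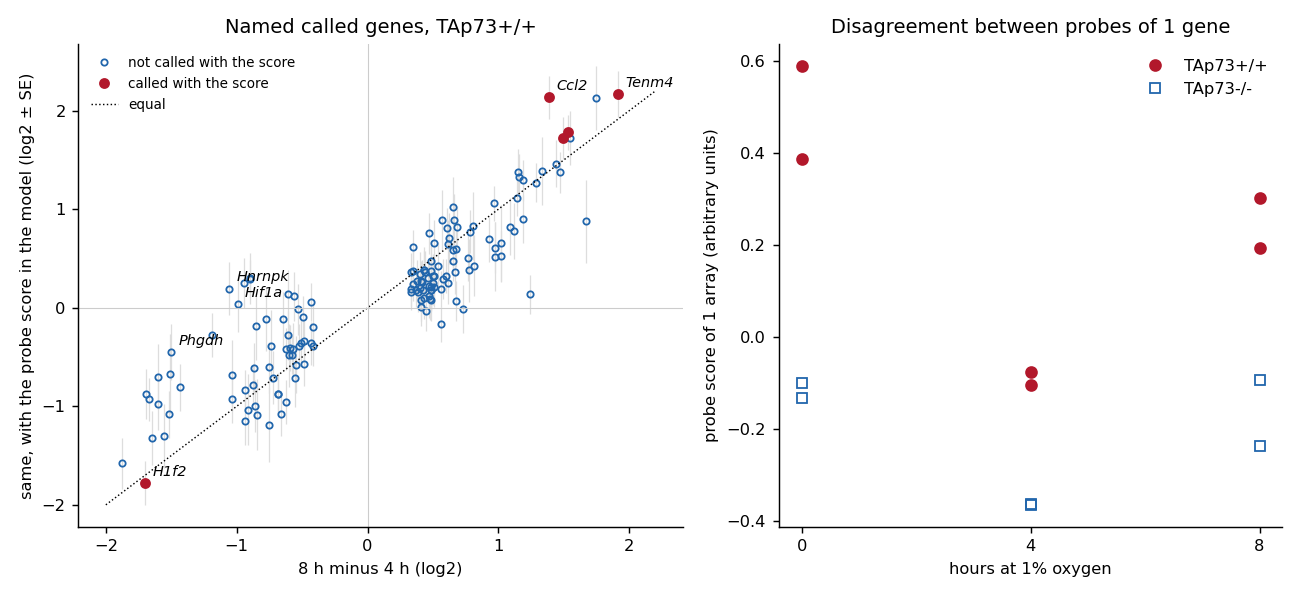
Left, the change of the 144 named called genes with the probe score in the model (vertical axis, log2 with SE) against the change without it (horizontal axis, log2), the 5 genes still called in red. Right, the probe score of each of the 12 arrays by hours at 1% oxygen, with TAp73+/+ arrays at 0.19 and 0.30 at 8 h and -0.08 and -0.10 at 4 h.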

How the data were processed

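RNA of 12 arrays was read on Illumina mouse bead arrays with 45281 probes. Per the file headers, the deposited unnormalised table gives every probe a linear intensity and a detection p-value on every array. A second deposited table, the value table of the series, holds intensity values on a linear scale that the submitters' processing notes credit to Partek. Within each array its values rank the probes as the unnormalised signals do, with a median of 71.5 on all arrays, and it served as an alternative. Signals were corrected by normexp from the detection p-values, given an offset of 16, quantile-normalised across arrays and turned into log2 values (limma 3.58.1, R 4.3.3). A probe was kept where some group had a detection p below 0.05 on each of its 2 arrays (21223 probes). Gene symbols came from the platform annotation (34885 probes with 1 symbol, 18 with several, 10378 with none), and 34807 were updated through the Entrez identifier with a GRCm38.p6 table. Among the kept probes 3332 had no single symbol and were left out. The brightest probe stands for each gene, and 4571 of 10873 genes have others.

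A model with 1 mean for each of the 6 groups was fitted to all 12 arrays (limma, lmFit and eBayes, 10.8 degrees of freedom), with Benjamini-Hochberg adjustment over all genes and a call at adjusted p below 0.05. The number of arrays limits the precision. Named genes are up to 12 called rises and 12 falls with arrays that do not overlap, up to 4 called members each way of each of 41 lists and 9 marker lists (2 where none was called), genes called for the genotype difference, and a short fixed set. The genes and lists were chosen with earlier results of these data known. Promoter windows were searched with Python 3.11.15 and figures drawn with matplotlib 3.10.9. The test was tried on simulated data. Alternatives changed the background correction, offset, normalisation, filter, arrays in the fit, choice of probe, replicate block and probe score.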

Additional observations from a re-analysis of the deposited data

Results flagged for a closer look

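The late change of 7 named genes was flagged, either because the test called a difference between the genotypes or because the arrays moved in opposite directions. For Hspa1a and Ddit3 the test of the difference called it. TAp73+/+ minus TAp73-/- was -1.86 for Hspa1a (-1.88 in TAp73+/+ and -0.01 in TAp73-/-, adjusted p = 0.0130) and -1.59 for Ddit3 (0.16 in TAp73+/+ and 1.74 in TAp73-/-, adjusted p = 0.0311). Hspa1a was called under 9 of 16 other settings and Ddit3 under 6.

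For the other 5 genes both arrays at 8 h lay on one side of both arrays at 4 h in TAp73+/+ cells. In TAp73-/- cells they lay on the opposite side, while the test did not call the difference. Such a lack of overlap was common over all genes, at 36.2% upward and 30.1% downward in TAp73+/+ cells. In TAp73-/- cells the shares were 32.1% upward and 24.7% downward, so these 5 genes are only described. The difference was 0.80 for Ccne1, cyclin E1 (0.47 in TAp73+/+ and -0.33 in TAp73-/-, adjusted p = 0.155). It was -0.86 for Tsc1 (-0.57 and 0.29, adjusted p = 0.108) and 0.87 for the homeobox gene Hoxb5 (0.41 and -0.46, adjusted p = 0.108), in the same order of genotypes. It was 0.58 for the splicing factor gene Srsf3 (0.33 and -0.24, adjusted p = 0.182) and 0.21 for Vegfa (0.06 and -0.15, adjusted p = 0.532). No cause was tested.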

How the results depend on the processing

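The 1505 calls became 2370 when only the 4 arrays of the contrast entered the fit (1451 shared), 5 with the probe score as covariate, and 286 to 694 without 1 array, where the lone array of a group is taken to vary like the others. Under the 8 other settings the count was 1184 to 1914. The same count in TAp73-/- cells was 12 with the probe score and 123 to 1628 without 1 array. The genotype difference was called for 6 genes with the deposited processed values, 1 without a detection filter, 5 with a stricter one, 4 with the mean of a gene's probes, 1 with the replicate block, 0 with the probe score and 0 to 1 without 1 array. Replicate numbers did not pair the samples (correlation of deviations -0.25 to 0.12 over 15 pairs of groups), and the replicate block gave 1252 calls in TAp73+/+ cells, 1222 of them shared. With the probe score 5 of the 144 named calls held, 128 were lost and 11 turned sign: Hif1a 0.040, Sec61b 0.14, Calr 0.11, Castor2 -0.17, Ephb4 -0.012, Hnrnpk 0.19, Hnrnpa2b1 0.30, Eif3c 0.29, Psmd2 0.25, Psmb5 0.059 and Tob2 -0.031. With the mean of a gene's probes Tsc1 turned to 0.00028, Srsf6 to -0.19 and Pgk1 to -0.11. No named called gene turned sign under any other setting. Other probes of called genes had the same sign in 76.0% of cases, beside 63.2% over all genes. The causes were not tested. The number of arrays and the signal over background limit what could be called.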

Other observations

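Further gene groups of the late contrast in TAp73+/+ cells are given as values, beside the 13.8% of all genes called. Of 27 sterol and fatty acid synthesis genes the cholesterol enzyme Dhcr7 and the lipogenic regulator Srebf1 rose, by 0.34 and 0.38, and the sterol enzyme Nsdhl fell by 0.65. Of 24 Hox genes Hoxb5 and Hoxc10 rose, by 0.41 and 0.48, and Hoxd13 fell by 0.55. Of 17 lipid droplet and lipid uptake genes the phosphatidate phosphatase Lpin2 rose by 0.50, and of 24 autophagy genes Wipi2, a phagophore protein, by 0.41. Inhba, the activin A subunit, rose by 0.34 as the called gene of 23 in the TGF-beta group. Of 19 mRNA decay genes 3 rose, Pan2 by 0.43, Tob2 by 0.44 (-0.031 with the probe score in the model) and Upf1 by 0.41. Dhcr7, Srebf1, Hoxb5, Wipi2, Inhba, Pan2, Tob2 and Upf1 were called in 0 of the 4 limma fits that leave out 1 array, and Nsdhl, Hoxc10, Hoxd13 and Lpin2 in 1. Of 7 mitochondrially encoded transcripts 0 were called by limma, with a median of 0.00 in TAp73+/+ cells and of -0.58 in TAp73-/- cells, where 4 fell. The difference between those medians was not tested.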
